A study of Mus musculus with 9 samples.

Results

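Semaphorins, plexins, neuropilins, Slits and Robos were measured by single-nucleus RNA sequencing (snRNA-seq) of epididymal adipose tissue (epiAT) of male C57BL/6J mice. The genes were taken by name, by a rule that uses no measured value: 38 of the 32285 genes in the count tables, comprising 20 semaphorins, 9 plexins, 2 neuropilins, 3 Slits and 4 Robos. Each of the 9 diet groups was 1 library made from the pooled tissue of 5 mice, so no group has a replicate. Groups C, CC and CCC received chow only and were 18, 26 and 39 weeks old. Per the study, this chow was at first a low-fat diet. CC and CCC were then switched to a standard chow, as HC and HHC were after HFD, whereas C was not. H mice, at 18 weeks of age, had spent 12 weeks on high-fat diet (HFD), and HH mice, at 31 weeks of age, 25 weeks. HC and HHC mice lost weight on 8 weeks of chow after 12 or 25 weeks of HFD and were 26 and 39 weeks old. CCH mice received chow and then HFD for the last 4 weeks, HCH mice received 12 weeks of HFD, 8 weeks of chow and 4 further weeks of HFD, and both were 30 weeks old. Pooling removes any view of the spread between mice, and in all that follows intervals are exact 95% intervals that cover counting error only, with no test of a diet effect.

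Semaphorins are secreted or membrane-bound ligands first known from axon guidance. Class 3 semaphorins are secreted and mostly bind the neuropilins Nrp1 and Nrp2 in complex with plexin A or plexin D1 receptors, whereas Sema3e binds plexin D1 directly. Class 4 semaphorins pair mainly with plexins B and D1, class 6 with plexins A, and Sema7a with plexin C1. Slits are large secreted ligands of the Robo receptors, and Robo4 is largely restricted to endothelium. Outside the nervous system these families act in vessel patterning, leukocyte migration and tissue remodelling, and Sema4d (CD100) and Sema4a are known from immune cells.

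The files hold counts of unique molecular identifiers (UMIs), 22599619 to 66615262 per library. After limits on genes and UMIs and removal of predicted doublets, 73209 nuclei were kept, 4007 in CC to 12561 in HH, with a median of 2067 to 3213 UMIs per nucleus. Nuclei were assigned to a cell class by marker genes that include none of the 38, and classes are called X-like for that reason. The assignment placed 53602 nuclei, 60.5% to 82.1% per library, and all markers of a class were detected in that class in every library that held it except Nts in lymphatic endothelial-like and Adam7 in epithelial-like nuclei of a few libraries. Libraries of a pair shared 8 to 55 cell barcodes, at most 0.493% of the smaller. Adipocyte marker RNA found in another class was not equal between libraries: the 11 adipocyte markers summed to 3678 counts per 1e6 UMIs (CPM) in macrophage-like nuclei of CC and to 372 to 1370 CPM in those of the other 8 libraries. Whether it came from free RNA, doublets or misassigned nuclei was not tested. The median nucleus of CC held more adipocyte markers than markers of its own class in the macrophage-like and mesothelial-like classes (6 against 5 in each) and as many in the progenitor-like class (6), so these class names rest on less in CC, the control of HH and HC. For this reason each gene's level is set beside an expected carry-over, that is, the level it would reach if RNA of the other classes were present in proportion to their markers found in the class. Some measured levels lay far under it, so it can overstate carry-over. A difference is called where 2 libraries differ by at least 2-fold with an interval that excludes 1-fold and at least 20 UMIs in all, and called above carry-over where the higher library is at least 2-fold over its expected carry-over.

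The 38 genes gave 906106 UMIs in the kept nuclei. Slit3 alone held 359360 of these, or 39.7%, followed by Nrp1 with 124675, Plxna4 with 47894, Sema3c with 46225 and Nrp2 with 44544. Robo3 had 19 UMIs over all 9 libraries and is not described further. It lies 0.553 kb from Robo4 on the opposite strand. All 38 are protein coding, with gene spans from 9.711 kb (Sema4c) to 737.79 kb (Robo1). Intronic reads were counted, so long genes collect more reads per transcript and levels are compared between genes only per kb of span. The families are spread over 18 chromosomes. Chromosome 5 carries Sema3a, Sema3c, Sema3d, Sema3e and Slit2, and chromosome 9 carries 6 of the genes, among them Sema3b and Sema3f 72.27 kb apart on the same strand. Slit2 and Slit3 each overlap an annotated gene on their own strand, Gm20475 and Gm12122, from which their reads may not be fully separated.

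The 32 genes with a listed promoter had 45 windows of 250 bases before a RefSeq transcription start (GRCm38.p6). Their median GC content was 63.6% against 52.4% for all 32851 windows, with a median of 12 against 6 CpG. The GC box GGGCGG or its reverse CCGCCC was present in 30 member windows (66.7%) and in 32.7% of all windows. The ETS-type motif GAGGAAG or its reverse CTTCCTC was present in 13 (28.9%) against 10.6%, and ACAGGAAG or CTTCCTGT, a related motif that cannot match the same bases in full, in 1 (2.22%) against 2.90%. Windows are printed for Sema4d, Sema4a and Sema3e, on which the diet comparisons in macrophage-like and progenitor-like nuclei turn, limited to windows that touch no annotated exon. Sema4d lists 3 starts, Sema4a 4 and Sema3e 1, and the data do not say which start was used. Capitals mark a GC box or, in the third window, the motif GAGGAAG.
Sema4d, chr13:51739447-51739696: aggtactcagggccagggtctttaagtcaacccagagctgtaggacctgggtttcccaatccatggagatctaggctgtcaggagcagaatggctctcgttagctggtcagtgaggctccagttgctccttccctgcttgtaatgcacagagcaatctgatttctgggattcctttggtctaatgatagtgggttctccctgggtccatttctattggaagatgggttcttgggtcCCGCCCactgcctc
Sema4a, chr3:88461183-88461432: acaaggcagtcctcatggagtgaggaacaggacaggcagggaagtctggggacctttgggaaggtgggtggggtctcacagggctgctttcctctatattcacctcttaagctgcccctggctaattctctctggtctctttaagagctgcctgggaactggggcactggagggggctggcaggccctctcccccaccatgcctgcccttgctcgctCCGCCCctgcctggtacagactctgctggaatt
Sema4a, chr3:88459102-88459351: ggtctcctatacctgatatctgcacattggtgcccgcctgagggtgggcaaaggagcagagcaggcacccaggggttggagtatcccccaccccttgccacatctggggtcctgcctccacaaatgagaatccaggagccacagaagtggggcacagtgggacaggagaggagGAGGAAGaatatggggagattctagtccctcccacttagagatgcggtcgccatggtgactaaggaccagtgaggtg
Sema3e, chr5:14025026-14025275: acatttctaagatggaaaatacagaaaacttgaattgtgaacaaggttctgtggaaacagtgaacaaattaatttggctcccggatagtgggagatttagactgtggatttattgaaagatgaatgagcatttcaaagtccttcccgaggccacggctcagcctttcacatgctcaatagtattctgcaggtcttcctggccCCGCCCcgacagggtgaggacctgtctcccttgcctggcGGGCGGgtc
The first window lies inside Sema4d on the minus strand, with 52.4% GC. The next pair belong to Sema4a on the minus strand, outside the gene body with 59.6% GC and inside it with 58.0% GC. The last lies before Sema3e on the plus strand, with 48.0% GC and a GC box on each strand. All 4 hold between 2 and 7 CpG, below the median of the member windows. A match of letters is a description and not a bound site.

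Semaphorins, Slits and Robos included members with a wide class preference, up to 35.8-fold over the second class for Sema3g, 4.43-fold for Slit1 and 5.70-fold for Robo1, whereas no neuropilin exceeded 1.62-fold and no plexin 2.04-fold. Over the 9 classes with at least 50 nuclei in 5 or more libraries, 18 of 37 genes were higher in their leading class than in the second class in every library that held both. Lymphatic endothelial-like nuclei led for 7 genes, blood endothelial-like and progenitor-like nuclei for 6 each, epithelial-like for 5, macrophage-like and mesothelial-like for 4 each, T or NK-like for 3, B-like for 2 and adipocyte-like nuclei for none. None of the 5 epithelial-like leads held against the second class in every library. Sema6b, counted as lymphatic, was above blood endothelial-like nuclei in only 2 of 7. Among genes with a second class above 0, the widest ratio was that of Sema3g, a class 3 semaphorin: its median level in blood endothelial-like nuclei was 108 CPM (49.9 to 143 over 9 libraries) against 3.0 CPM in progenitor-like nuclei, the second class, a ratio of 35.8. Sema4f, at a lower level, was at 15.8 CPM (3.04 to 29.7) in T or NK-like nuclei and at a median of 0 in the second class, higher in 8 of 8 libraries. The heat map of class levels shows the remaining genes.

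**Figure D1:**
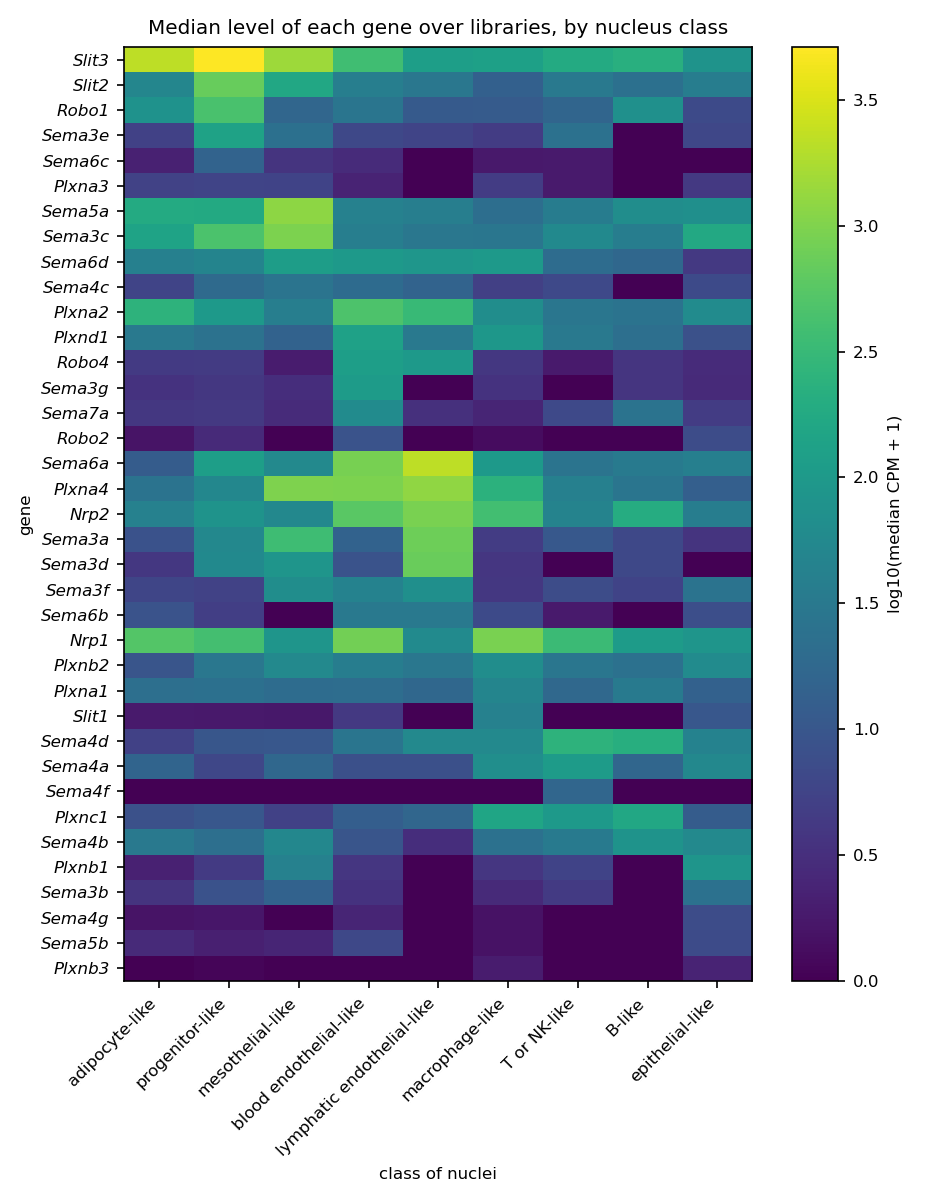
Median level over libraries of 37 genes (vertical axis, ordered by leading class) in 9 cell classes (horizontal axis), as log10(CPM + 1), with brighter colours for higher levels. Sema3g is bright in blood endothelial-like nuclei and Robo4 in both endothelial-like classes, Slit3 is highest in progenitor-like nuclei and present in adipocyte-like and mesothelial-like nuclei, and Sema6a, Sema3d and Sema3a peak in lymphatic endothelial-like nuclei.

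In the endothelium some of the genes differed by vessel type. Lymphatic endothelial-like nuclei (847 nuclei in 9 libraries, with levels from the 7 that held at least 50) had the highest level of Sema6a, a membrane-bound ligand of plexins A, at a median of 2181 CPM (1980 to 2444) against 881 CPM in blood endothelial-like nuclei. Sema3d followed a steeper pattern, with 724 CPM (644 to 1004) against 84.8 CPM in mesothelial-like nuclei, a ratio of 8.54, and Sema3a reached 778 CPM (570.3 to 1270) against 363 CPM there. Nrp2, the neuropilin known from lymphatic vessels, was at 922 CPM (546 to 990.3) against 570 CPM in blood endothelial-like nuclei and was higher in 7 of 7 libraries. Plxna4 was also highest in lymphatic endothelial-like nuclei at 1232 CPM, but this order held in only 5 of 7 libraries against mesothelial-like nuclei. Blood endothelial-like nuclei led for Plxna2 at 466 CPM (322 to 550.0, above lymphatic in 7 of 7) and for Plxnd1, the receptor of Sema3e, at 131 CPM (118 to 212, above macrophage-like nuclei at 90.9 CPM in 9 of 9). Robo4 was at 119 CPM in blood and 100 CPM in lymphatic endothelial-like nuclei, an order kept in 4 of 7 libraries, so these neighbours do not differ beyond their spread, and at 3.48 CPM in the next class. Per kb of gene span, Robo4 (9.02 CPM per kb) and Sema3g (8.61) were the highest of the families in blood endothelial-like nuclei and Sema6a (16.4) in lymphatic ones.

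In the stroma, progenitor-like nuclei (16245) led for Slit3, Slit2 and Robo1. Slit3, on chromosome 11 (11:35121224-35708507, plus strand, mm10), was at 5127 CPM (3701 to 6511) in progenitor-like nuclei, 2191 CPM in adipocyte-like and 1470 CPM in mesothelial-like nuclei, and was higher in progenitor-like nuclei in 9 of 9 libraries. Slit2 was at 704 CPM (367 to 755) against 165 CPM in mesothelial-like nuclei, and the receptor Robo1 at 442 CPM (243 to 677) against 77.6 CPM in adipocyte-like nuclei, each in 9 of 9 libraries. Sema3e and Sema6c also led there, at 136 and 14.4 CPM. Mesothelial-like nuclei led for Sema5a at 1211 CPM (1031 to 1603), 6.48 times the adipocyte-like level, and for Sema3c at 936 CPM (611 to 1230) against 451 CPM in progenitor-like nuclei, again in 9 of 9. Within progenitor-like nuclei, fibro-inflammatory nuclei, defined by Dpp4 and Pi16 among others, exceeded committed ones in Sema3e, Sema3c and Sema3d in 7 of 7 libraries. Nrp1, Plxna4, Plxnd1 and Sema5a were higher in committed nuclei in 7 of 7, although Plxna4 there stayed under 2-fold of its carry-over in 6 of the 7.

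Immune-like classes led for 4 of the class 4 semaphorins, Sema4a, Sema4b, Sema4d and Sema4f, whereas Sema4c led in mesothelial-like nuclei (26.1 CPM) and Sema4g in epithelial-like nuclei (6.37 CPM). Sema4d was highest in T or NK-like nuclei, at a median of 248 CPM (183 to 409), and lower in B-like nuclei at 211 CPM in 7 of 7 libraries. Sema4a was at 109 CPM (61.9 to 178) in T or NK-like and 67.7 CPM in macrophage-like nuclei, an order kept in 5 of 8. Plxnc1, the receptor of Sema7a, was at 165 CPM in B-like and 148 CPM in macrophage-like nuclei without a stable order (4 of 7), and was higher still in the 3 libraries with enough dendritic-like nuclei, at 383, 244 and 264 CPM in H, HH and HCH. Macrophage-like nuclei led for Nrp1 at 916 CPM (788 to 1086), which did not separate from blood endothelial-like nuclei at 831 CPM (7 of 9 libraries). They also led for Plxna1 at 47.0 CPM (7 of 7 above B-like nuclei) and for Slit1 at 41.2 CPM (20.2 to 69.6), which stood at 9.30 CPM in the second class.

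Diet comparisons were made between age-matched libraries where the design has them: H against C, HC against CC, HHC against CCC and HCH against CCH. HH (31 weeks old) was compared with CC, which was 26 weeks old and carries another set label, and also with C, which carries the same set label but was 18 weeks old. CC had also been switched from the low-fat to the standard chow, and C had not. HH against CC and HC against CC share the CC library. The obesity comparison H against C called 54 of 170 gene and class pairs of the families (31.8%), where 25.7% of the pairs of all genes were called. Of these, 20 were higher (11.8%, all genes 18.3%) and 34 lower (20%, all genes 7.38%). HH against CC called 49 of 128 (38.3%, all genes 31.2%), 11 higher (8.59%, all genes 21.4%) and 38 lower (29.7%, all genes 9.79%), or 6 higher and 46 lower with either other scaling. After weight loss, HC against CC called 49 of 124 (39.5%, all genes 13.9%), 19 higher (15.3%, all genes 5.47%) and 30 lower (24.2%, all genes 8.43%), or 40 higher and 41 lower with clusters of nuclei in place of the marker assignment, and HHC against CCC 32 of 153 (20.9%, all genes 12.5%), 14 higher (9.15%, all genes 6.69%) and 18 lower (11.8%, all genes 5.76%). On renewed HFD, HCH against CCH called 27 of 182 (14.8%, all genes 14.5%), 18 higher (9.89%, all genes 11.8%) and 9 lower (4.95%, all genes 2.71%).

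Many of these pairs stood at the level of carry-over, so the counts were repeated above it. A pair enters these counts through its higher library, and carry-over differs between libraries, so they are a description and the split by direction is not read further. H against C then kept 25 of 109 (all genes 25.8%), 14 higher (12.8%, all genes 20.9%) and 11 lower (10.1%, all genes 4.90%). HH against CC kept 19 of 67 (all genes 31.6%), 7 higher (10.4%, all genes 26.1%) and 12 lower (17.9%, all genes 5.48%). HC against CC kept 21 of 67 (all genes 12.1%), 5 higher (7.46%, all genes 5.00%) and 16 lower (23.9%, all genes 7.11%). HHC against CCC kept 14 of 81 (all genes 10.2%), 5 higher (6.17%, all genes 6.31%) and 9 lower (11.1%, all genes 3.87%). HCH against CCH kept 8 of 99 (all genes 13.4%), 3 higher (3.03%, all genes 10.7%) and 5 lower (5.05%, all genes 2.71%). With carry-over subtracted from each level in place of this limit, the split was 19 higher and 11 lower in H against C, 14 and 8 in HH against CC and 5 and 12 in HCH against CCH, each turned from the uncorrected counts.

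**Figure D2:**
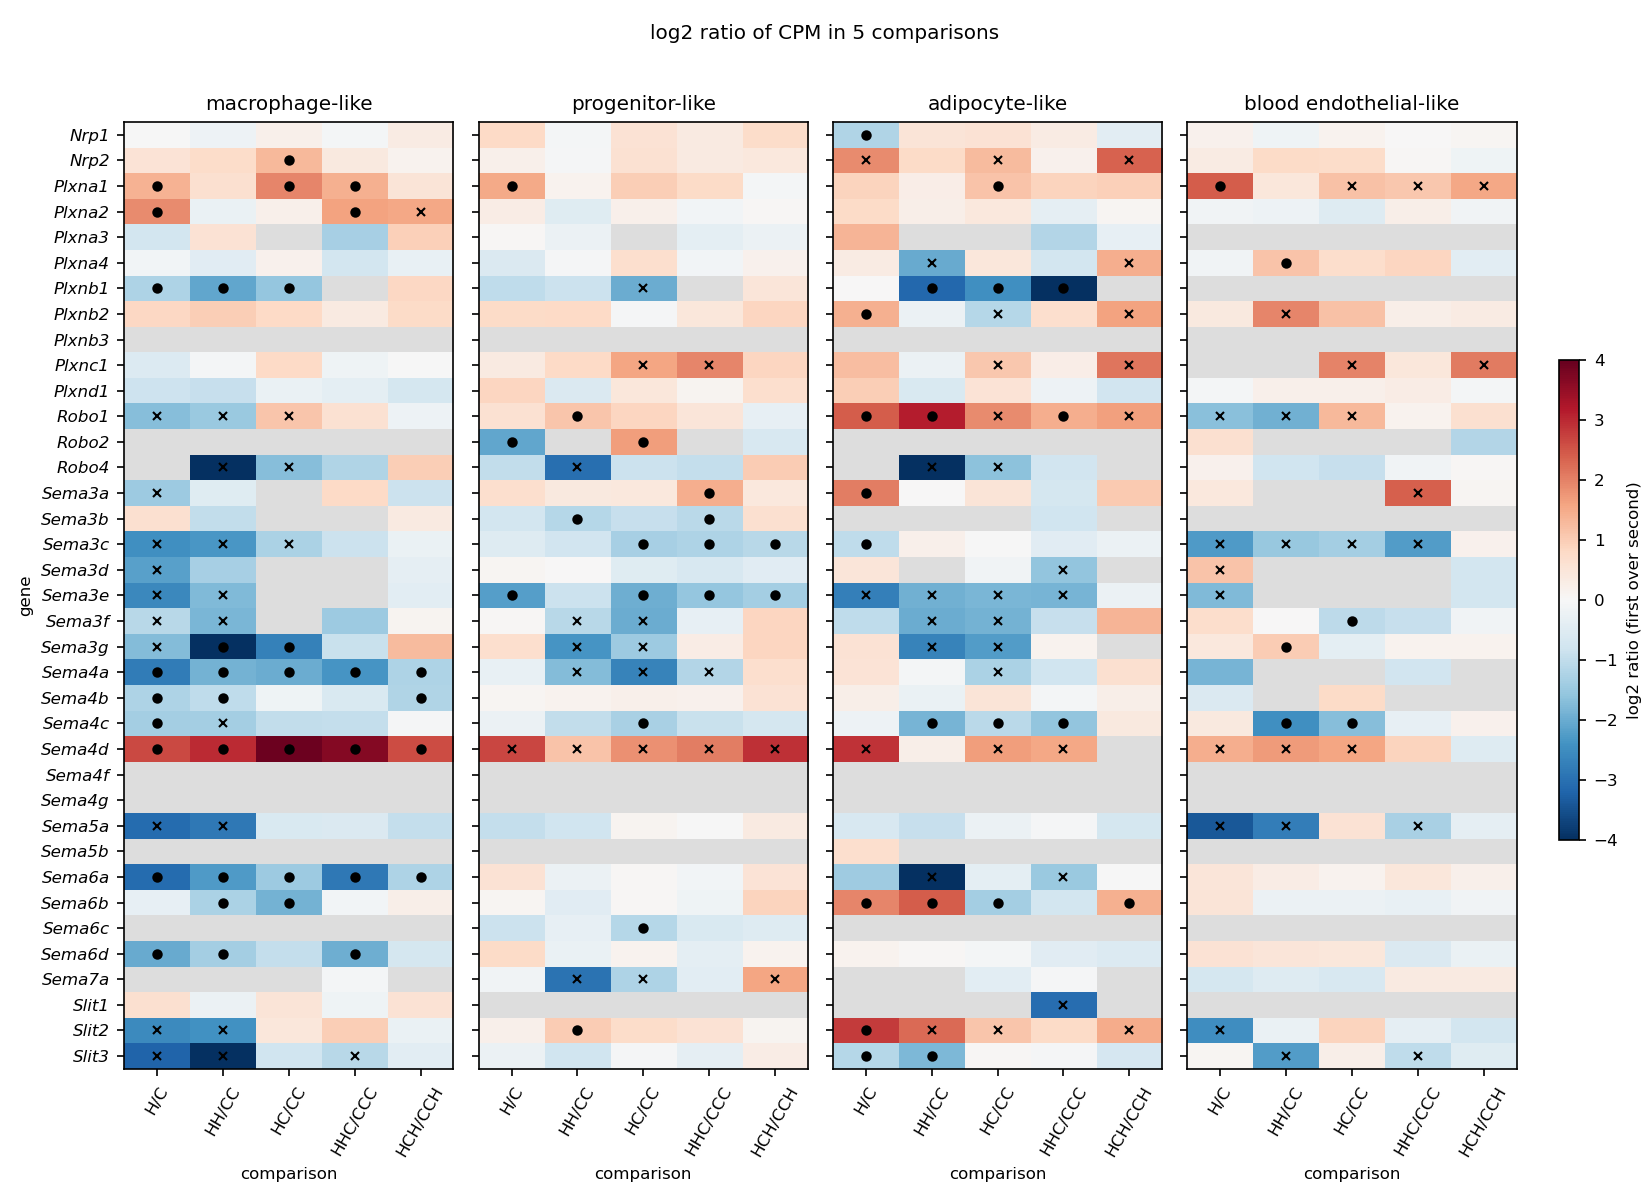
Log2 ratio of the first over the second library (colour, blue lower and red higher) for each gene (vertical axis) and comparison (horizontal axis) in macrophage-like, progenitor-like, adipocyte-like and blood endothelial-like nuclei. Dots mark called ratios above carry-over, crosses mark called ratios under 2-fold of the carry-over in the higher library, and grey marks pairs with under 20 UMIs. Sema4d, Sema4a, Sema6a and Sema6d in macrophage-like nuclei carry dots over most comparisons, and most calls for Slit3, Slit2, Sema5a and Sema3c in that class are crosses.

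Macrophage-like nuclei (17828) held the most called genes in both obesity comparisons. Sema4d, a membrane-bound ligand of plexin B receptors (13:51685529-51793747, minus strand), was higher in every library of mice fed HFD for 12 weeks or longer, whether or not they had lost weight. C had 11.8 CPM of it, CC 7.13, CCC 9.41 and CCH 8.87, whereas H had 74.6 CPM, HH 57.0, HC 108, HHC 121 and HCH 54.4. The groups do not overlap, and the library with 4 weeks of HFD lies with the chow libraries. The log2 ratio of Sema4d was 2.65 [2.21, 3.13] for H against C and 3.0 [2.11, 4.07] for HH against CC. After weight loss it was 3.93 [3.03, 5.0] for HC against CC and 3.69 [2.70, 4.90] for HHC against CCC, and for HCH against CCH it was 2.62 [2.20, 3.06]. The Sema4d level in the higher library exceeded its expected carry-over (9.77 to 22.9 CPM in these 5 libraries) in each comparison. The 11 T or NK markers, of the class with most Sema4d, summed to 13.4 to 32.8 CPM in macrophage-like nuclei of C, CC, CCC and CCH and to 16.2 to 65.4 CPM in the other 5, with 6 to 11 of 11 detected and Cd3g or Cd3e at 0 in CC, CCC, HC and CCH. Of 36 family genes with enough UMIs, Sema4d alone was higher in all 5 long-HFD libraries than in C, CC and CCC (11.9% of all genes in this class were).

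Sema4a, Sema6a and Sema6d moved the other way. Sema4a, a ligand of plexins B and D1 (3:88435959-88461182, minus strand), had 216 CPM in C, with 131, 189 and 160.5 CPM in CC, CCC and CCH, and 30.9 CPM in H, with 35.5, 33.4, 36.8 and 67.7 CPM in HH, HC, HHC and HCH. The log2 ratios of Sema4a were -2.80 [-3.0, -2.61], -1.89 [-2.15, -1.62], -1.98 [-2.35, -1.61], -2.36 [-2.64, -2.08] and -1.24 [-1.39, -1.10] in the order of comparisons given for Sema4d. Sema6a was at 249.5, 197, 218 and 234 CPM in C, CC, CCC and CCH, and at 29.2, 40.5, 71.4, 30.2 and 98.7 CPM in H, HH, HC, HHC and HCH. It was lower by 3.09, 2.28, 1.46, 2.85 and 1.25 on the log2 scale, all called. Sema6d was at 186, 158, 205 and 156 CPM in C, CC, CCC and CCH and at 46.1, 62.2, 82.3, 52.3 and 96.1 in H, HH, HC, HHC and HCH. It was called lower in H against C (-2.01), HH against CC (-1.35) and HHC against CCC (-1.97). Sema4b was called lower in H against C (-1.24), HH against CC (-1.02) and HCH against CCH (-1.20). In all, 9 of 36 family genes lay lower in all 5 long-HFD libraries than in C, CC and CCC (8.59% of all genes in this class): these 4 and Robo4, Sema3c, Sema3f, Sema3g and Sema4c. The 9 dendritic markers summed to 386 to 499 CPM in macrophage-like nuclei of C, CC, CCC and CCH and to 109 to 287 CPM in those of the long-HFD libraries, the same direction as Sema4a. Their part in the result was not tested. With clusters of nuclei in place of the marker assignment the ratios of Sema4a, Sema6a, Sema6d and Sema4b that were recomputed kept their direction, as did those of Sema4d, which shrank to between 1.09 and 2.57. Under 2-fold with clusters were Sema4a and Sema6a in HCH against CCH (-0.78 and -0.64), Sema6d in HH against CC (-0.94) and Sema4b in all 3 comparisons named (-0.92, -0.94 and -0.75). Sema6d in HHC against CCC was not recomputed.

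**Figure D3:**
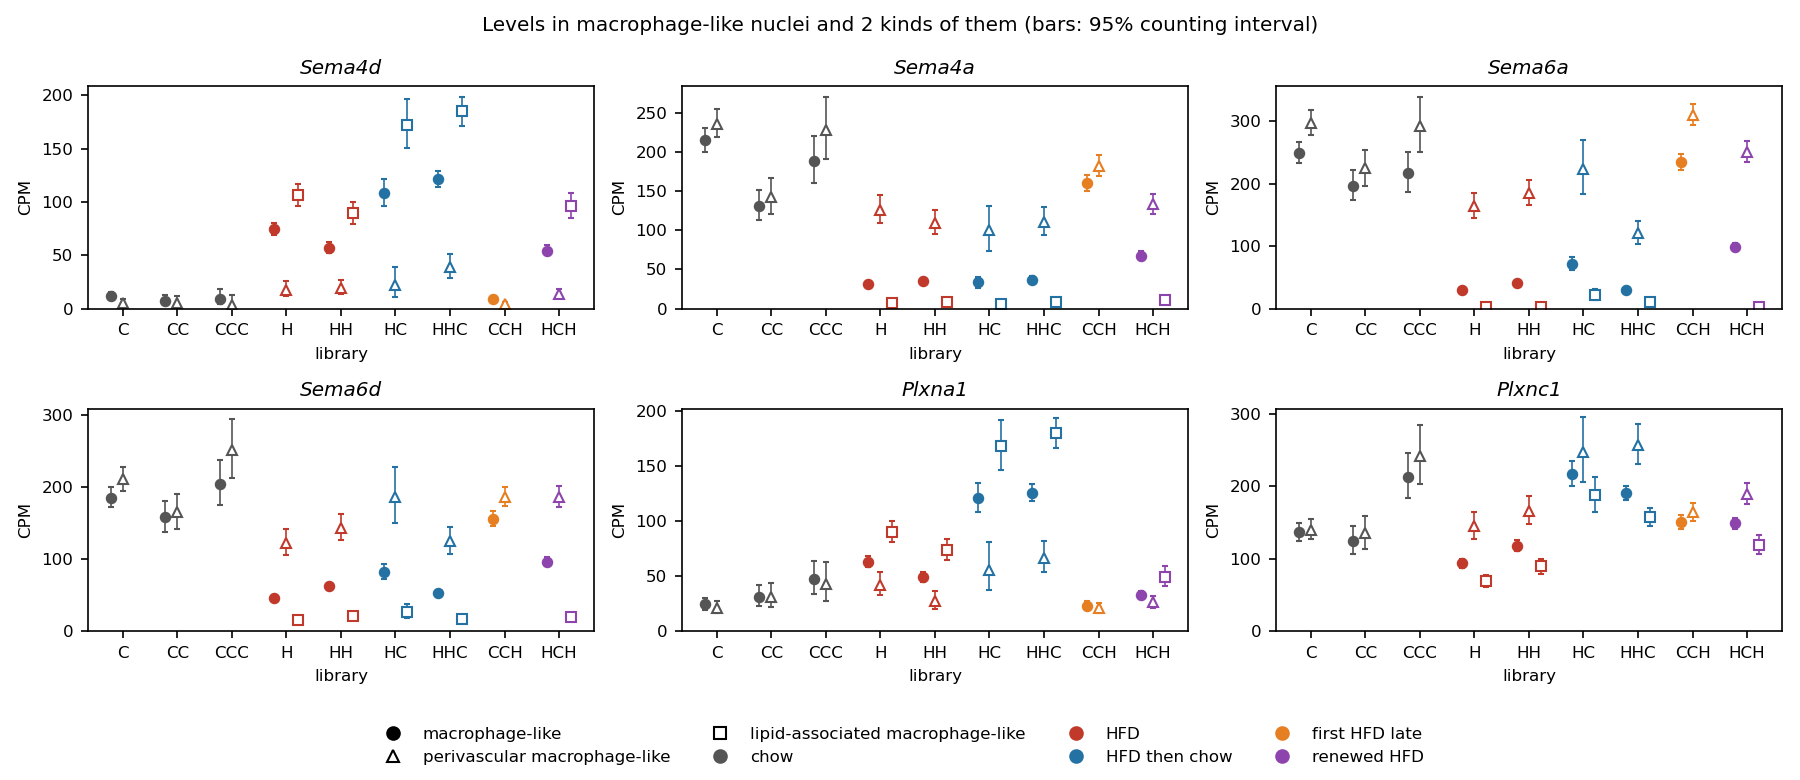
CPM (vertical axis, linear scale) of 6 genes in each of the 9 libraries (horizontal axis), with exact 95% counting intervals, for macrophage-like nuclei (circles), perivascular (triangles) and lipid-associated (squares) subsets. Colours give the diet (grey chow, red HFD, blue HFD then chow, orange late first HFD, purple renewed HFD). Sema4d circles rise from 7.13 to 11.8 CPM on chow to 54.4 to 121 CPM in the 5 long-HFD libraries, while Sema4a and Sema6a circles fall and their triangles change less.

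The make-up of the class differed between the same libraries. Nuclei with lipid-associated macrophage markers (Trem2, Gpnmb and others) were 1.09%, 0.899%, 2.41% and 1.49% of macrophage-like nuclei in C, CC, CCC and CCH and 35.1%, 29.7%, 41.2%, 44.0% and 23.5% in H, HH, HC, HHC and HCH. Perivascular nuclei (Lyve1, Cd163 and others) were 67.8% to 77.6% in the first 4 and 14.5% to 36.4% in the others. Sema4d was at 106, 89.4, 172, 185 and 96.0 CPM in lipid-associated and at 17.6, 19.1, 22.0, 38.8 and 14.1 CPM in perivascular nuclei for H, HH, HC, HHC and HCH, so it was higher in the lipid-associated subset in 5 of 5 libraries, by 2.22 to 2.97 on the log2 scale. Sema4a and Sema6a had the opposite preference: Sema4a was at 5.35 to 10.5 CPM in lipid-associated and 99.8 to 133 CPM in perivascular nuclei, and Sema6a at 2.76 to 21.4 CPM against 121 to 251 CPM. The medians differed by 12.4-fold for Sema4a, 61.5-fold for Sema6a and 7.36-fold for Sema6d.

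Within perivascular macrophage-like nuclei alone the differences of Sema4a, Sema6a, Sema6d and Sema4d were smaller. Sema4a was at 237, 143, 229 and 183 CPM in C, CC, CCC and CCH and at 126, 109.7, 99.8, 111 and 133 CPM in H, HH, HC, HHC and HCH. The groups still do not overlap, but of the 5 comparisons only HHC against CCC was called, at -1.05 [-1.39, -0.70]. Sema6a and Sema6d were likewise called lower only in HHC against CCC in this subset, at -1.27 [-1.59, -0.96] and -1.01 [-1.34, -0.68]. Sema6a fell from 292 to 121 CPM there and was level in HC against CC, at 224 CPM in each. Sema4d was called higher in 4 of the 5 comparisons in perivascular nuclei, by 1.74 to 3.51 on the log2 scale, with HH against CC at 0.88 with clusters, but only in HHC did its level (38.8 CPM) exceed 2-fold of the carry-over (19.2 CPM). Plxna4 differed in this subset and not in the class as a whole: it was at 219, 292, 289 and 262 CPM in C, CC, CCC and CCH and at 77.2, 118, 274, 105 and 167 CPM in H, HH, HC, HHC and HCH. Plxna4 was called lower in H against C (-1.50 [-1.79, -1.22]), HH against CC (-1.31 [-1.57, -1.05]) and HHC against CCC (-1.46 [-1.79, -1.13]) but not in HC against CC (-0.09 [-0.39, 0.20]). HH against C gave -0.89 [-1.13, -0.67], under 2-fold. Slit3, Slit2, Sema5a, Sema3c and Robo1 were called lower in both obesity comparisons in this subset too, all at or under carry-over, and Sema3c by more than in the whole class (-3.32 and -2.69 against -2.45 and -2.32). Without the upper limit on detected genes Robo1 came under 2-fold in both (-0.38 and -0.67). In all, 13 of 26 genes were called in this subset in H against C (all genes 25.2%), 8 of 20 in HH against CC (31.8%), 1 of 18 in HC against CC (12.7%), 6 of 19 in HHC against CCC (10.5%) and 1 of 25 in HCH against CCH (13.2%), and 7 of 31 lay lower in all 5 long-HFD libraries than in C, CC and CCC (4.65% of all genes in the subset).

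Of the receptors in macrophage-like nuclei, Nrp1, Plxnc1 and Plxna4 were called in no comparison, while plexins A1, A2 and B1 and Nrp2 were called in some. Nrp1 lay between 788 and 1086 CPM in all 9 libraries and its log2 ratios between -0.22 and 0.34, and Plxnc1 and Plxna4 ranged over 93.5 to 216 and 206 to 339.8 CPM. Plxnb1, a receptor of Sema4d, was low, at 7.71, 8.56, 2.35 and 1.74 CPM in C, CC, CCC and CCH and at 3.30, 2.0, 2.90, 1.87 and 3.11 CPM in H, HH, HC, HHC and HCH. The Plxnb1 ratio was called lower in H against C (-1.22 [-1.99, -0.44]), HH against CC (-2.09 [-3.21, -0.92]) and HC against CC (-1.56 [-3.06, -0.15]), above carry-over in each, with only 33, 19 and 8 UMIs in H, HH and HC and 28 and 12 in C and CC. Nrp2 rose in HC against CC, from 232 to 567 CPM (1.29 [1.11, 1.46]), and was not called elsewhere. Plxna1, a receptor for class 6 semaphorins and, with neuropilins, class 3, was at 24.2, 31.4, 47.0 and 23.0 CPM in C, CC, CCC and CCH and at 63.0, 49.1, 121, 126 and 32.9 CPM in H, HH, HC, HHC and HCH. It was called higher in H against C (1.38 [1.05, 1.72]), HC against CC (1.94 [1.49, 2.43]) and HHC against CCC (1.42 [0.97, 1.91]). The highest Plxna1 levels were in HC and HHC. Both carry the set label of CC and CCC, unlike H, HH and HCH, so diet and set label cannot be told apart in that ranking. In lipid-associated nuclei Plxna1 was at 49.5 to 179.6 CPM against 26.3 to 66.6 CPM in perivascular nuclei, higher in 5 of 5 libraries, whereas Slit1 was lower there in 5 of 5 (22.9 to 49.7 against 46.9 to 107 CPM). Plxna4 and Plxna2 were also higher in lipid-associated nuclei in 5 of 5 (253 to 371 against 77.2 to 274 CPM and 66.0 to 110 against 21.2 to 55.9 CPM). Plxna2 was called higher in H against C (70.7 CPM in H, 1.90 [1.54, 2.27]) and HHC against CCC (25.9 to 79.3 CPM, 1.62 [1.01, 2.30]), and in HCH against CCH (13.9 to 40.6 CPM, 1.54 [1.19, 1.91]) at the level of carry-over (39.5 CPM; 0.90 with clusters), but CC, at 77.0 CPM with an expected carry-over of 98.2, lay with the HFD libraries. Over all family genes measured in macrophage-like nuclei, 19 of 29 were called in H against C (all genes 37.1%), 3 higher (all genes 25.2%) and 16 lower (all genes 11.8%), with a median log2 ratio of -1.22 against 0.25 over all genes. The corresponding figures were 17 of 30 in HH against CC (median -1.31 against 0.32 over all genes, of which 38.5% were called), 11 of 24 in HC against CC (20.9%), 7 of 27 in HHC against CCC (15.5%) and 5 of 30 in HCH against CCH (18.1%). Many of the lower calls were of genes at or under carry-over: Slit3 fell from 144 CPM in C to 15.5 in H and from 650.2 in CC to 26.5 in HH, where 281 to 1546 CPM would be expected from the other classes, and the same held for Slit2, Sema5a, Sema3c, Robo1 and Sema3e. A Slit3 level so far under the expected one means that the measure overstates carry-over here. Whether calls at or under it come from carried-over RNA was not tested.

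**Figure D4:**
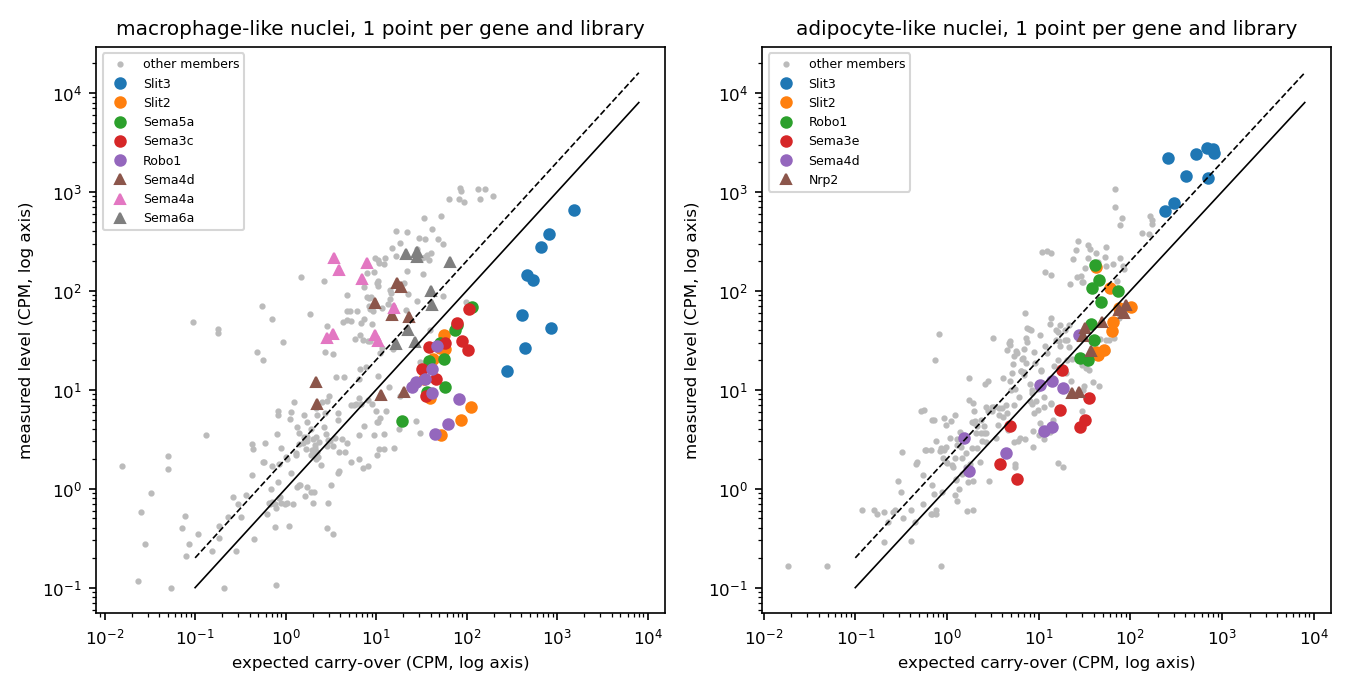
Level of each family gene (vertical axis, CPM, log scale) against its expected carry-over (horizontal axis, CPM, log scale) in macrophage-like and adipocyte-like nuclei, 1 point per gene and library. The solid line marks equality and the dashed line 2-fold. Sema4d of long-HFD libraries and Sema4a of C, CC, CCC and CCH lie above the dashed line in macrophage-like nuclei, and Slit3 lies under the solid line there (15.5 CPM against 281 CPM in H).

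In progenitor-like nuclei the ligand that differed most, among those called above carry-over and in every comparison except HH against CC, was Sema3e (5:14025276-14256689, plus strand), the ligand of plexin D1. C had 459 CPM of it, CC 149, CCC 136 and CCH 571, whereas H had 100.1 CPM, HH 82.6, HC 38.5, HHC 46.8 and HCH 221. The 3 chow libraries themselves spread from 136 to 459 CPM, and HCH lies inside that range. The highest of the 3 was C, the youngest and the only one not switched to the standard chow. The log2 ratio of Sema3e was -2.20 [-2.33, -2.06] for H against C, -1.95 [-2.25, -1.66] and -1.54 [-1.79, -1.29] for the weight loss libraries HC and HHC against their controls, and -1.37 [-1.45, -1.29] for HCH against CCH, all called. The HH ratio depended on the control: -0.85 [-1.05, -0.65] against CC, under 2-fold, and -2.47 [-2.61, -2.34] against C. Expected carry-over of Sema3e was at most 5.20 CPM in this class. Sema3c, which marks Dpp4-positive interstitial progenitors, was at 519, 451, 477 and 1095 CPM in C, CC, CCC and CCH and at 364, 266, 178, 201 and 505 CPM in H, HH, HC, HHC and HCH. The Sema3c ratios were called lower after weight loss, at -1.34 [-1.48, -1.20] in HC against CC and -1.25 [-1.37, -1.12] in HHC against CCC, and again for HCH against CCH at -1.12 [-1.17, -1.06], though at -0.99 with free RNA subtracted, but not in H against C (-0.51) or HH against CC (-0.76). The CCH library, with 4 weeks of first HFD, was the highest of the 9.

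Both genes were higher in the fibro-inflammatory than in the committed subset. The fibro-inflammatory subset made up 43.0%, 30.1%, 28.5% and 56.8% of progenitor-like nuclei in C, CC, CCC and CCH and 40.2%, 27.2%, 20%, 25.4% and 33.9% in H, HH, HC, HHC and HCH. Within that subset Sema3e was at 889, 364, 378 and 911 CPM in C, CC, CCC and CCH and at 221, 259, 164, 149.8 and 536 CPM in H, HH, HC, HHC and HCH. Sema3e stayed called lower in H against C (-2.01 [-2.15, -1.88]), HC against CC (-1.15 [-1.47, -0.85]) and HHC against CCC (-1.34 [-1.60, -1.07]), and was under 2-fold in HCH against CCH (-0.76 [-0.85, -0.68]). Sema3c within the subset was called only in HC against CC (-1.10 [-1.30, -0.90]), with -0.98 for HHC against CCC and -0.65 for HCH against CCH. In committed nuclei Sema3e was at 0 to 66.1 CPM in the 7 libraries with enough nuclei.

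**Figure D5:**
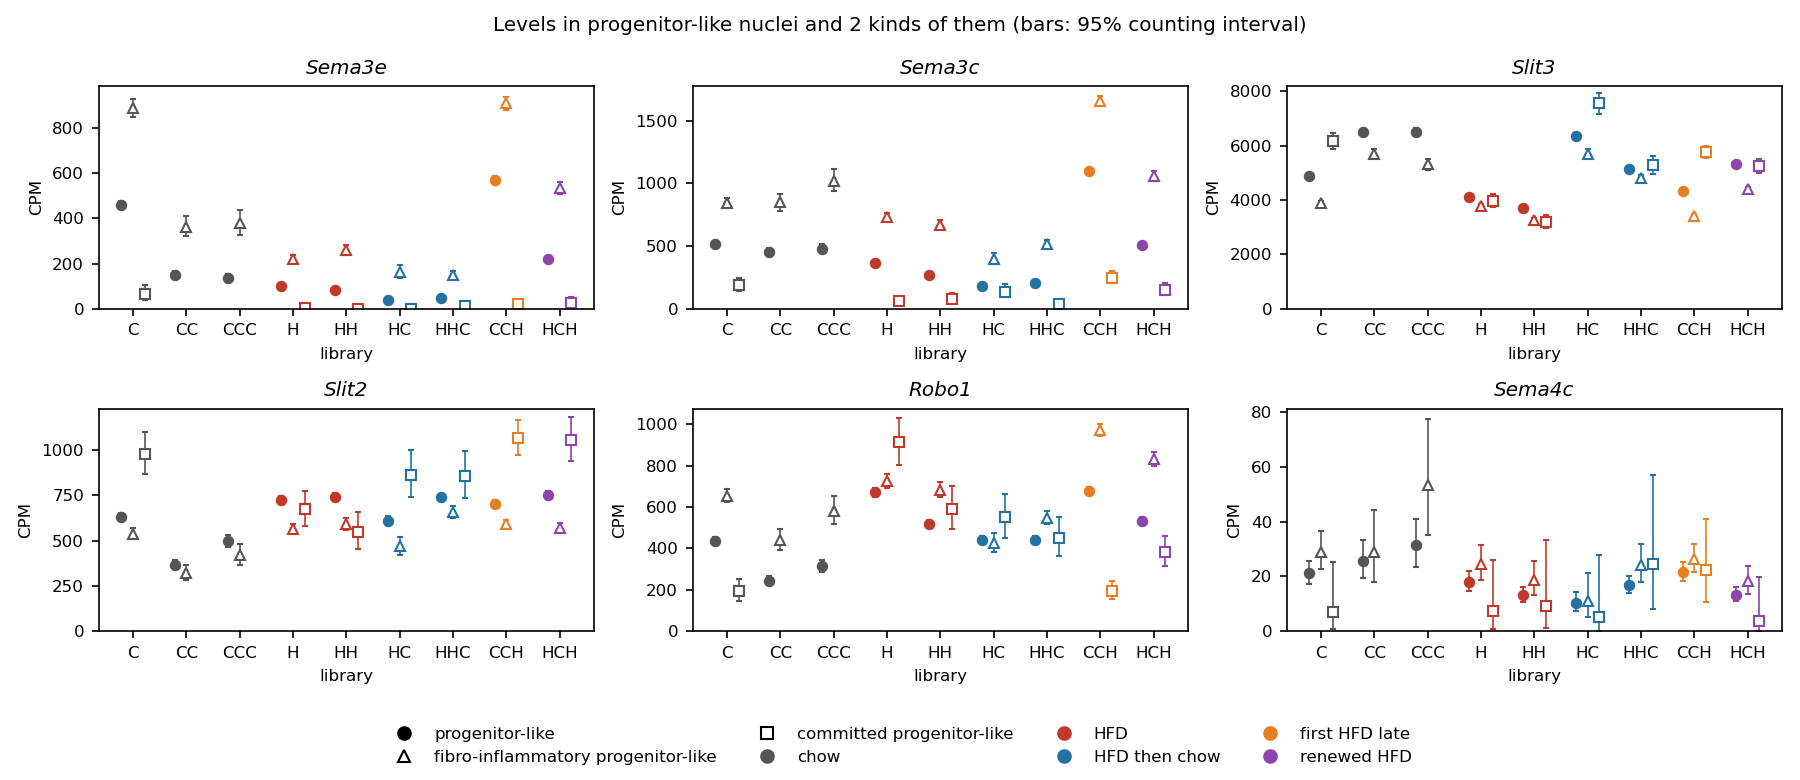
CPM (vertical axis, linear scale) of 6 genes in each of the 9 libraries (horizontal axis), with exact 95% counting intervals, for progenitor-like nuclei (circles) and their fibro-inflammatory (triangles) and committed (squares) subsets, with the same diet colours as in the macrophage plot. Sema3e circles span 38.5 to 571 CPM and are lowest in HC and HHC, whereas Slit3 circles stay between 3701 and 6511 CPM.

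Slit3 in progenitor-like nuclei varied little beside this, while Slit2 and the receptor Robo1 varied more. Slit3 was at 4877, 6488, 6511 and 4317 CPM in C, CC, CCC and CCH and at 4127, 3701, 6346, 5127 and 5314 CPM in H, HH, HC, HHC and HCH. No Slit3 ratio reached 2-fold, the largest being -0.81 [-0.84, -0.78] in HH against CC. Slit2 and Robo1 were called higher in HH against CC, at 1.02 [0.91, 1.13] and 1.09 [0.96, 1.23], but HH against C gave only 0.24 and 0.25, since CC was the lowest of the 9 libraries for both (367 and 243 CPM). Robo1 in the committed subset was at 195 CPM in C and 196 in CCH, and at 913, 591, 549, 449 and 382 CPM in H, HH, HC, HHC and HCH, with H against C at 2.23 [1.81, 2.67]. CC and CCC held under 50 committed nuclei, so the weight loss libraries have no control in that subset. Plxnc1, Robo1 and Sema4d lay higher in the 5 long-HFD libraries than in C, CC and CCC (3 of 35 genes; 6.87% of all genes in this class), although CCH, at 677 CPM, exceeded all 5 in Robo1. The Plxnc1 level was called higher in HC against CC (6.89 to 20.5 CPM, 1.57 [0.76, 2.48]) and HHC against CCC (6.62 to 25.4 CPM, 1.94 [1.07, 2.97]), under its expected carry-over of 22.1 and 30.1 CPM. Among low genes, Sema4c, Sema6c and Plxnb1 lay lower in those 5 (3 of 35 genes; 3.75% of all genes). For Sema4c the ranges were 10.4 to 17.9 against 21.1 to 31.3 CPM and for Sema6c 8.19 to 14.4 against 16.8 to 20.5 CPM, and both were called lower in HC against CC (-1.31 [-1.94, -0.69] and -1.13 [-1.87, -0.40]). Plxna1 was called higher in H against C in this class as well (13.5 to 38.3 CPM, 1.5 [1.11, 1.91]). Sema4d was called higher in all 5 comparisons here, but at 8.83 to 27.6 CPM in the higher libraries against 10.6 to 29.2 CPM of expected carry-over, and the ratio in HH against CC came under 2-fold with either other scaling (0.90 and 0.89). With carry-over subtracted the Sema4d ratio in HC against CC turned to -2.17. Sema4a was called lower in both weight loss comparisons (-2.66 and -1.17, the latter -0.60 with clusters and -0.84 without the upper limit on genes) and Sema7a higher in HCH against CCH (1.57), also without exceeding 2-fold of the carry-over. In the fibro-inflammatory subset Sema4d was called higher in both weight loss comparisons and on renewed HFD (1.85, 3.72 and 2.45) at the level of carry-over, and Sema4c lower after weight loss (-1.37 and -1.14), above it. With carry-over subtracted Sema4d in HC against CC was at 0.85 in this subset. Over the class, 4 of 32 genes were called in H against C (all genes 27.8%), 9 of 31 in HH against CC (32.0%), 12 of 31 in HC against CC (13.5%), 7 of 30 in HHC against CCC (12.0%) and 4 of 32 in HCH against CCH (14.6%).

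In adipocyte-like nuclei (8011) Slit3 was lower in obesity and level after weight loss. It was at 1435, 2720, 2462 and 2191 CPM in C, CC, CCC and CCH and at 647, 776, 2804, 2388 and 1380 CPM in H, HH, HC, HHC and HCH. The Slit3 ratios were -1.15 [-1.28, -1.02] for H against C and -1.81 [-1.89, -1.73] for HH against CC, both called, 0.04 and -0.04 for HC against CC and HHC against CCC, and -0.67 for HCH against CCH. HH against C gave -0.89 [-0.97, -0.81], under 2-fold. Robo1, in contrast, was higher in all 5 long-HFD libraries: 19.9, 20.7, 46.4 and 32.2 CPM in C, CC, CCC and CCH, and 107, 184, 77.6, 128 and 99.6 CPM in H, HH, HC, HHC and HCH. The Robo1 log2 ratios were 2.42 [2.05, 2.78], 3.15 [2.81, 3.50], 1.90 [1.55, 2.27], 1.47 [1.18, 1.75] and 1.63 [1.28, 1.99] in the same order as for Sema4d. Robo1 exceeded 2-fold of its carry-over (38.1, 41.5 and 45.7 CPM) in H, HH and HHC only. The 11 progenitor markers, all detected in adipocyte-like nuclei, summed there to 558 to 1016 CPM in C, CC, CCC and CCH and to 551 to 1601 CPM in the others, highest in HCH. Slit2 followed Robo1, with 22.6 to 39.2 CPM in C, CC, CCC and CCH and 173, 108, 48.7, 66.8 and 68.8 CPM in H, HH, HC, HHC and HCH, but only H stood over 2-fold of the carry-over. Of 34 genes measured, Robo1 and Slit2 were the 2 higher in all 5 long-HFD libraries than in C, CC and CCC (2.79% of all genes in this class), and Plxnb1 and Sema3e the 2 lower (3.36% of all genes). The Plxnb1 level was 3.67, 4.89, 15.0 and 2.32 CPM in C, CC, CCC and CCH and 0, 0.549, 0.885, 0.613 and 1.21 CPM in H, HH, HC, HHC and HCH. It was called lower in HH against CC (-3.15 [-8.52, -0.52]), HC against CC (-2.47 [-4.85, -0.72]) and HHC against CCC (-4.61 [-9.94, -2.08]), above carry-over in each, with 1 to 3 UMIs in the lower library, and with clusters HHC against CCC was at -1.46. Sema3e was lower in H, HC and HHC against their controls (-2.72, -1.83 and -1.87), with no UMI in HH, but under its expected carry-over in every library, and HHC against CCC turned to 0.38 with clusters. H held only 189 adipocyte-like nuclei.

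Sema6b, a membrane-bound ligand of plexins A, was higher in the adipocyte-like class of H and HH than in all libraries of mice on chow at collection. It was at 5.17, 6.75, 13.2 and 4.93 CPM in C, CC, CCC and CCH, 19.8 in H, 36.2 in HH, 13.3 in HCH, 2.65 in HC and 7.97 in HHC. The ratios were 1.94 [1.05, 2.75] for H against C, 2.42 [1.77, 3.11] for HH against CC and 1.43 [0.45, 2.44] in HCH against CCH, and -1.35 [-2.61, -0.23] in HC against CC, all called and all above carry-over (at most 4.04 CPM). CCH, also on HFD at collection, lay under C, CC and CCC, and HCH was level with CCC. Nrp1 was at 1074 CPM in C and 377 to 696 CPM in the other 8 libraries, so its call in H against C (-1.22 [-1.37, -1.07]) rested on C. Sema4c was called lower in HC against CC (-1.08) and HHC against CCC (-1.59) above carry-over, and Sema4d higher in both (1.66 and 1.54) without exceeding 2-fold of it. Nrp2, Plxnc1, Plxnb2 and Plxna4 were called higher in HCH against CCH (2.35, 2.15, 1.60 and 1.46), all likewise. Without the upper limit on detected genes these 4 were at 1.55, 1.03, 1.03 and 0.31 and Slit2 at 0.50, so the calls of Plxna4 and Slit2 there end, as does that of Sema4c in HC against CC under 7 of the alternatives (-0.99 to -0.61). In adipocyte-like nuclei 11 of 28 genes were called in H against C (all genes 29.4%), 12 of 26 in HH against CC (34.6%), 15 of 28 in HC against CC (12.3%), 8 of 31 in HHC against CCC (15.0%) and 7 of 23 in HCH against CCH (17.2%).

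In blood endothelial-like nuclei (4242) several receptors and endothelial members were called in no comparison, namely Nrp1 (737 to 956 CPM), Plxnd1 (118 to 212), Robo4 (91.4 to 172), Sema7a (38.7 to 104) and Plxna2 (322 to 550.0). Sema6a was at 823, 786, 647 and 976 CPM in C, CC, CCC and CCH and at 1162, 976, 874, 881 and 1124 CPM in H, HH, HC, HHC and HCH, higher in the 5 long-HFD libraries than in C, CC and CCC (1 of 32 genes; 3.80% of all genes), with no ratio over 2-fold (0.15 to 0.50). Sema3c and Sema3e were lower in those 5 (2 of 32; 3.42% of all genes), both under carry-over in every library. The Sema3c level was 56.3, 83.7, 93.2 and 37.4 CPM in C, CC, CCC and CCH and 11.8, 29.1, 32.3, 19.96 and 42.4 CPM in H, HH, HC, HHC and HCH, called lower in all comparisons except HCH against CCH (-2.25, -1.52, -1.37 and -2.22), although HC against CC was at -0.75 with clusters and HH against CC at -0.92 with doublets kept. Sema5a and Robo1 were called lower in H against C (-3.40 and -1.68) and HH against CC (-2.77 and -1.93), also under carry-over, with Robo1 in H against C at -0.73 with clusters, and Sema4d higher in both (1.45 and 1.71) at its level. Against the same CC library, Robo1 was called higher in HC, without a level over 2-fold of the carry-over. With carry-over subtracted Sema4d was at -1.26 in H against C and 0.07 in HH against CC. Plxna4 and Sema3g were called higher in HH against CC (1.15 [0.97, 1.35] and 1.01 [0.49, 1.55]), and HH against C gave 0.14 and 0.28. Sema4c was called lower in HH against CC (-2.45 [-4.19, -1.04]) and HC against CC (-1.70 [-2.83, -0.66]), at 6.62 and 11.1 against 36.1 CPM. The Plxna1 level rose from 7.20 CPM in C to 38.8 in H (2.43 [1.45, 3.45]), and only in that comparison exceeded 2-fold of the carry-over. Plxna1 was also called higher in HC, HHC and HCH against their controls (1.16, 1.08 and 1.54). With clusters HC and HHC came under 2-fold (0.94 and 0.63), as did HCH without the upper limit on genes (0.96). On renewed HFD the level of Plxnc1 was called higher (2.06 in HCH against CCH), under carry-over. In this class 8 of 27 genes were called in H against C (all genes 19.5%), 9 of 21 in HH against CC (24.0%), 7 of 23 in HC against CC (11.4%), 5 of 24 in HHC against CCC (11.8%) and 2 of 26 in HCH against CCH (14.1%).

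In the smaller classes most calls stood at the level of carry-over. Lymphatic endothelial-like nuclei gave none above it. In mesothelial-like nuclei Plxna4 was at 849 to 878 CPM in C, CC and CCC and at 963 to 1295 CPM in the 5 long-HFD libraries (2 of 27 genes were higher in all 5, the other being Sema3f; 3.40% of all genes), with ratios of at most 0.61. The CCH level of Plxna4 lay inside the range of the long-HFD libraries. Plxnb1 and Plxnb2 fell in mesothelial-like nuclei of HC against CC, by 2.20 and 1.34 on the log2 scale, and Sema3d in HHC against CCC by 1.09. In T or NK-like nuclei Sema4a was at 61.9 CPM in CCH and 125 CPM in HCH (1.02 [0.18, 1.96]), a call that ended under 5 alternatives (0.26 to 0.99), while Sema4d, at 183 to 409 CPM, was not called. In epithelial-like nuclei 7 of 15 genes were called in H against C (all genes 26.6%), of which Plxnb2 (2.05 [1.23, 2.88]), Nrp2 (2.04 [0.89, 3.21]), Plxnb1 (1.11 [0.19, 1.99]) and Sema6a (1.07 [0.15, 1.94]) were higher and above carry-over. H held only 53 epithelial-like nuclei. TMM and median-of-ratios factors shift every ratio of this class in H against C by -0.32 and -0.16, and either takes Plxnb1 and Sema6a under 2-fold. Calls without a level over 2-fold of the carry-over were Plxna2 in mesothelial-like nuclei in both obesity comparisons (-1.10 and -1.37) and, in HCH against CCH, Plxnd1 and Robo1 in mesothelial-like (1.47 and -1.05), Nrp1 and Slit3 in B-like (2.33 and 1.78), Nrp1 in epithelial-like (1.83) and Sema3c, Sema5a and Slit3 in T or NK-like nuclei (-1.68, -1.63 and -1.49). Several of these came under 2-fold: with clusters, Nrp1 and Slit3 in B-like (0.89 and 0.20), Nrp1 in epithelial-like (0.27), and Robo1 in mesothelial-like nuclei (-0.25). With doublets kept, Sema3c and Slit3 in T or NK-like nuclei were at -0.99 and -0.13, and without the upper limit on genes Plxnd1 and, in H against C, Plxna2 in mesothelial-like nuclei were at 0.94 and -0.83.

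Other genes of the same pathways, 53 co-receptors, cytoplasmic effectors and related guidance genes, were counted in the same way, against the same backgrounds. H against C called 73 of 265 gene and class pairs (27.5%, all genes 25.7%). Of these, 37 were higher (13.96%, all genes 18.3%) and 36 lower (13.58%, all genes 7.38%). HH against CC called 64 of 192 (33.3%, all genes 31.2%), 25 higher (13.02%, all genes 21.4%) and 39 lower (20.31%, all genes 9.79%). After weight loss, HC against CC called 33 of 189 (17.5%, all genes 13.9%). There, 18 were higher (9.52%, all genes 5.47%) and 15 lower (7.94%, all genes 8.43%). HHC against CCC called 41 of 231 (17.7%, all genes 12.5%), 21 higher (9.09%, all genes 6.69%) and 20 lower (8.66%, all genes 5.76%). On renewed HFD, HCH against CCH called 34 of 285 (11.9%, all genes 14.5%). There, 19 were higher (6.67%, all genes 11.8%) and 15 lower (5.26%, all genes 2.71%). In macrophage-like nuclei Mical2, an oxidoreductase that acts on actin downstream of plexins, was higher in all 5 comparisons, by 2.06 to 2.65 on the log2 scale. Cd72, a receptor of Sema4d on leukocytes, was called higher in H against C (2.44), HH against CC (1.28), HHC against CCC (1.58) and HCH against CCH (3.33). Fyn, a Src-family kinase, was called higher in the obesity and weight loss comparisons (1.02 to 1.52). Vegfa, a ligand of Nrp1, was called lower in all 5 (-3.16 to -1.25), and Srgap1, a Robo effector, in 4, the exception being HC against CC. In macrophage-like nuclei the 11 adipocyte markers summed to 1115 to 3678 CPM in C, CC, CCC and CCH. They summed to 372 to 934 CPM in H, HH, HC, HHC and HCH, the same direction as Vegfa. Their part in the result was not tested. In progenitor-like nuclei Vegfa was called lower in 4 comparisons (-1.85 to -1.10) and in blood endothelial-like nuclei in 5 (-2.37 to -1.37). Of the 245 calls of the pathway genes in all 5 comparisons, 138 were above carry-over, and the calls named here were not set beside carry-over one by one.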

How the data were processed

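Nuclei of epiAT were pooled from 5 mice per group, libraries were prepared with the 10x Genomics droplet method and, per the study's methods and the processing notes of the submitters, the authors aligned reads to mm10 and counted UMIs per gene, introns included, with Cell Ranger 6.1.2, and analysed them with Seurat 4.1.0. The deposited files hold these raw counts in 1 filtered matrix per library, with no cell annotation among the files used here. The authors estimated free RNA, judged that correction was not needed for any library and did not subtract it.

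Barcodes were kept at 500 to 3000 detected genes if they held no more than 40000 UMIs, the limits of the study's methods. The upper limit removed 6.92% to 24.1% of the 91687 barcodes per library. Doublets were removed with Scrublet in scanpy 1.11.5. Its automatic threshold was used in the 5 libraries of one set label, but in CC, CCC, HC and HHC it marked at most 0.121% of nuclei, so there the highest scores were removed at the rate expected for that number of nuclei. In all, 1.92% to 7.28% were removed. A nucleus was assigned to a class if it had at least 3 distinct markers of it and enough excess of their sum over that expected from free RNA. This excess, a difference on a square-root scale, had to be at least 2 and at least 1.5 times that of the next class. Subsets of macrophages and progenitors needed 2 markers. Between 7.60% and 18.6% of assigned nuclei per library held exactly 3 markers of their class or an excess within 1 of its limit. Of assigned nuclei in named clusters, 85.5% to 97.2% had the same class by clustering. UMIs were summed per library and class and scaled to CPM without mitochondrial genes and Malat1.

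With 1 library per group no test across samples was possible. Levels have exact Poisson intervals and ratios exact conditional 95% intervals, which cover counting error only. The calculation was tested on simulated data. A pair was measured with at least 20 UMIs over both libraries and 50 nuclei in each. No column of the files belonged to samples outside the series (0 columns). Within each class the named genes are those called in the same direction in both obesity comparisons, in both weight loss comparisons, or on renewed HFD, at most 30, besides the leading class of every gene. Other genes are named because of a count of 5 or fewer or were chosen after their values were seen. The rule that picks the 38 genes by name was proposed, and the lists and markers were chosen, with earlier results of these data known. The limits of class assignment, the carry-over measure and its 2-fold threshold were chosen after seeing the data, including class yields and levels of some of the genes. Promoter windows are from RefSeq. Software was Python 3.11.15 with numpy 2.4.6, scipy 1.17.1, pandas 2.3.3, leidenalg 0.10.2 and matplotlib 3.10.9, and edgeR 4.0.16 for TMM factors only.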

Additional observations from a re-analysis of the deposited data

Results flagged for a closer look

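Plxna2 in perivascular macrophage-like nuclei differed in opposite directions in the 2 obesity comparisons. The log2 ratio was 1.01 [0.43, 1.59] in H against C and -1.03 [-1.52, -0.54] in HH against CC, and the difference between them was not tested. The level was 17.1 CPM in C and 34.5 in H, and 74.7 in CC and 36.6 in HH, so the H and HH levels are close and the chow libraries differ. Expected carry-over was 30.6 CPM in C, 96.3 in CC, 17.8 in H and 24.2 in HH, higher in CC than in the other libraries as were the adipocyte markers, and HH against C gave 1.09 [0.54, 1.66]. The part of carry-over in this result was not tested.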

How the results depend on the processing

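No paired analysis was possible because each group is 1 library and no replicate numbers are shared, and no library could be left out of a group for the same reason. In macrophage-like, progenitor-like, adipocyte-like and the other classes together, clusters made without the family genes gave 81 calls of 192 pairs tested in HC against CC (49 of 124 as reported), 47 of 211 in HCH against CCH (27 of 182) and 382 for the pathway genes (245), and without an upper limit on detected genes HCH against CCH gave 43 of 213. Subtracting free RNA by its indicator genes gave 29 of 101, 23 of 76, 21 of 69 and 18 of 82 calls in H against C, HH against CC, HC against CC and HHC against CCC, and subtracting the expected carry-over gave 30 of 107, 22 of 74, 21 of 70, 17 of 88 and 17 of 102 in all 5 comparisons. The share of all genes called was not recomputed under these alternatives, so their counts cannot be read against a background. The free RNA share was limited to 50.0%, which 42 of 80 library and class pairs reached, among them blood endothelial-like nuclei in 9 of 9 libraries, so these values may subtract too little or too much. Counting only pairs above carry-over gave 25, 19, 21, 14 and 8, and 138 for the pathway genes. After subtraction of carry-over the calls split into 19 higher and 11 lower in H against C, 14 and 8 in HH against CC and 5 and 12 in HCH against CCH, each the reverse of the uncorrected order, and with free RNA subtracted into 18 and 11 in H against C, also reversed, but 9 and 14 in HH against CC, not reversed. With clusters HC against CC split into 40 and 41. Of the calls as reported, 42 of 54, 43 of 49, 36 of 49, 19 of 32 and 18 of 27 were kept in direction with clusters, and 22, 16, 16, 14 and 9 after subtraction of carry-over. With C in place of CC as the control of HH, 27 of 49 were kept. Reversed values were Sema3e in adipocyte-like nuclei, HHC against CCC, at 0.38 with clusters, Plxna1 in blood endothelial-like nuclei at -0.64 in HC against CC and -0.62 in HHC against CCC with free RNA subtracted, and with carry-over subtracted Sema4d in blood endothelial-like nuclei, H against C, at -1.26 and in progenitor-like nuclei, HC against CC, at -2.17. The cause was not tested. Of 132 named ratios past 2-fold, 20 came under 2-fold with clusters, 13 without the upper limit on detected genes, 6 with doublets kept, 2 with 1 marker fewer, 2 with 1 more, 2 with TMM and 3 with median-of-ratios factors, as did 5 of the 54 recomputed with carry-over subtracted and 4 of the 40 with free RNA subtracted. Of the other alternative values of named genes, 1038 moved by less than their interval and 106 by more, without a change of direction. TMM factors shifted the median ratio of all genes by -0.47 to 0.18 on the log2 scale, and median-of-ratios factors by -0.41 to 0.12, over 0.1 in 19 and 20 of 41 class comparisons, and no named gene changed direction with either. With clusters, 7 genes changed their leading class, among them Sema4d (to B-like) and Robo4 (to lymphatic endothelial-like). Sema6b moved to blood endothelial-like nuclei with clusters and under most other alternatives.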

Other observations

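Smooth muscle or pericyte-like nuclei reached 50 in C, HC and HCH only. Slit3 was at 3472, 3144 and 2447 CPM and Sema5a at 793, 1070 and 463 CPM in these 3 libraries, so both genes were well above the macrophage-like and blood endothelial-like levels of the same libraries. Slit3 in HCH was under 2-fold of its expected carry-over (1840 CPM), and the median nucleus of that class in HCH held 5 progenitor markers and 4 of its own. In dendritic-like nuclei of H, HH and HCH, Sema4a was at 179.9, 155 and 129 CPM and Sema4d at 98.6, 170.1 and 149 CPM. Both sets of values come from too few libraries for any diet comparison.

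Across whole-library sums, where class make-up and levels act together, the genes most like 4 family members over 9 libraries were named among 16911 by Pearson correlation of log2(CPM + 1). Slit3 was closest to Nectin2, Cers4 and Nfix (0.976, 0.976 and 0.975), Nrp2 to Amz1, Cotl1 and Myo9b (0.989, 0.983 and 0.981), Sema3c to Gm30978, Apold1 and Mctp2 (0.978, 0.971 and 0.968), and Plxnc1 to Slc9a7, Gm41804 and Rftn1 (0.985, 0.968 and 0.968). The points share libraries, depth and cell make-up, and the values are a description only.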
